A study of Mus musculus with 15 samples.

Results

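Akr1c14 and 9 genes of steroid metabolism (Akr1c18, Srd5a1, Hsd17b1, Hsd17b4, Hsd17b7, Star, Cyp11a1, Cyp19a1 and Sts) were described in whole pituitary glands of mice that lack the pituitary enhancer (PE) of Nr5a1. The 10 genes were chosen by name. Akr1c14 was selected on its low level in PE−/− females, so all its values in comparisons that hold female libraries are given as a description, with no test, and the other 9 were added for their roles in steroid metabolism. Of the 55523 rows of the gene count table, 9 were rows of these genes, 7 of which held a count in at least 1 library. Sts was not analysed here.

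NR5A1, also known as Ad4BP or SF-1, is a nuclear receptor whose source in the pituitary is the gonadotrope, the cell that makes luteinizing hormone and follicle-stimulating hormone. The enhancer lies in an intron of Nr5a1 and was removed from fertilized eggs with CRISPR/Cas9. Control (PE+/−) mice had a heterozygous deletion and so kept 1 copy of the enhancer, and PE−/− mice had a homozygous deletion and kept 0. No animal without the deletion is among the 15 libraries, which comprised 4 of PE+/− males, 4 of PE−/− males, 4 of PE+/− females and 3 of PE−/− females, all from whole pituitary. The ages of the mice, the stage of the oestrous cycle of the females and whether glands were pooled are not given in the sources used here, and PE−/− mice of both sexes are infertile per the study, so that pituitary and gonadal sources of a change cannot be told apart. The labels number replicates without saying that each came from a separate animal, so p-values measure the spread between these samples.

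Steroid hormones are made from cholesterol in the gonads and adrenal glands, where STAR carries cholesterol into mitochondria and CYP11A1 cuts its side chain. Aromatase, the product of Cyp19a1, turns androgens into oestrogens, and 17-beta-hydroxysteroid dehydrogenases interconvert weak and potent forms. Target tissues also change the steroids that reach them. The 5-alpha-reductase SRD5A1 reduces testosterone and progesterone, and AKR1C14, the 3-alpha-hydroxysteroid dehydrogenase of the mouse, acts on the reduced products. AKR1C18, the 20-alpha-hydroxysteroid dehydrogenase, inactivates progesterone, and STS, the steroid sulfatase, frees steroids from their sulfates.

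Library totals ran from 12982794 to 30238443 estimated counts. About 4 counts stood for 1 fragment, so 12 counts, or 3 fragments, were taken as the floor of detection, which came to between 0.371 and 0.937 CPM (counts scaled to the library total, with TMM factors over all 15 libraries). Nr5a1, whose enhancer was deleted, lay between 33.7 and 80.1 CPM in the 8 PE+/− libraries and between 0 and 0.896 CPM in the 7 PE−/− libraries. The summed level of 5 gonadotrope markers (Nr5a1, Lhb, Fshb, Gnrhr and Foxp2) lay between 2695 and 3986 CPM in PE+/− males and between 22.5 and 162 CPM in PE−/− males. In females it lay between 517 and 2090 CPM in PE+/− and between 70.7 and 124 CPM in PE−/− libraries. Most of the sum in PE+/− males was Fshb, at 2199 to 3257 CPM. The top of the control female range was PE+/− replicate 4, with Fshb at 1752 CPM against 163 to 359 CPM in the others. Foxp2 fell less, from between 19.6 and 26.7 CPM to between 7.68 and 11.2 CPM in males. In bulk tissue, fewer cells of a type and less RNA per cell cannot be told apart.

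Akr1c14 (ENSMUSG00000033715) lies on the plus strand of chromosome 13 at chr13:4049011-4090688 (mm10), with 13 merged exon blocks of 3239 bases in all and 3 annotated transcripts. The 200 bases that precede the RefSeq start of the gene by 51 to 250 bases (chr13:4059341-4059540, plus strand, GRCm38.p6) are shown because this gene had by far the widest range of levels among the 10. That start, at base 4059591, lies inside the annotated gene span, which begins at base 4049011. The stretch is thus upstream of the RefSeq start only, and the bases before 4049011 were not searched. The sequence is from RefSeq, in lower case throughout because none of the motifs searched for lies in it.

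Akr1c14 upstream: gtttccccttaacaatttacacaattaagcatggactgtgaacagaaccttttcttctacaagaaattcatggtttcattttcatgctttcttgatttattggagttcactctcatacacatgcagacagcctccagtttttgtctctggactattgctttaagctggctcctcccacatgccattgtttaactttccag

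In the full window of 300 bases around that start, no match was found on either strand to the NR5A1 site CAAGGTCA, to the oestrogen response element (GGTCA and its inverse 3 bases apart) or to its single arm GGTCA, which also lies within the NR5A1 site. Of 32851 RefSeq promoters of the same length, 1.56% held the NR5A1 site, 0.07% the full element and 40.5% the single arm. Promoters of Hsd17b7, Cyp19a1, Cyp11a1, Akr1c18 and Srd5a1 were also matched, and none of them held the NR5A1 site or the full element. These are matches of letters in a short window, and they say nothing about binding elsewhere, including before the earlier annotated start of Akr1c14.

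Akr1c14 was abundant in control females and near the floor in PE−/− females. In PE+/− females it was at 280, 367, 585 and 623 CPM (3586, 8775, 10747 and 10224 counts; mean 464 ± 167 CPM, SD, n = 4). In PE−/− females it was at 0.432, 0.402 and 0.613 CPM (7, 13 and 14 counts; mean 0.482 ± 0.114 CPM, SD, n = 3). The PE−/− mean was 0.104% of the control mean. All 3 PE−/− libraries were far below the lowest control library. The log2 fold change (PE−/− minus PE+/−) was −9.90. Its standard error is left out here and in the other comparisons of Akr1c14 with female libraries, since it is taken from the test statistic. The 34 counts of the 3 PE−/− libraries stand for about 8.5 fragments in all, so the size of the fold is imprecise, and set against the level that 12 counts would give in those libraries (0.545 CPM) the control mean was 850 times higher.

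In males Akr1c14 was lower in most PE−/− libraries, but the groups overlapped. Replicates 1, 2, 3 and 4 of PE+/− males were at 32.1, 20.7, 280 and 19.3 CPM (456, 446, 4587 and 298 counts; mean 87.9 ± 128 CPM, SD, n = 4), and those of PE−/− males were at 0.505, 0.344, 0 and 24.4 CPM (10, 9, 0 and 430 counts; mean 6.32 ± 12.1 CPM, SD, n = 4). Of the PE−/− males, 3 libraries were at or under the floor and replicate 4 was above 2 of the control libraries. The log2 fold change was −3.81 (SE 1.81), which did not pass the edgeR quasi-likelihood test over all 17392 genes tested in males (adjusted p = 0.845). In that comparison 0.132% of the genes tested passed the threshold of 0.05 on the adjusted p, and the groups did not overlap in 4.56%. Single libraries set the value. The log2 fold change was −8.25 without PE−/− replicate 4 (adjusted p = 0.226), −1.94 without PE+/− replicate 3 and −6.38 without either of them (adjusted p = 0.0969), and the adjusted p lay between 0.0969 and 0.9995 over all alternatives.

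**Figure D1:**
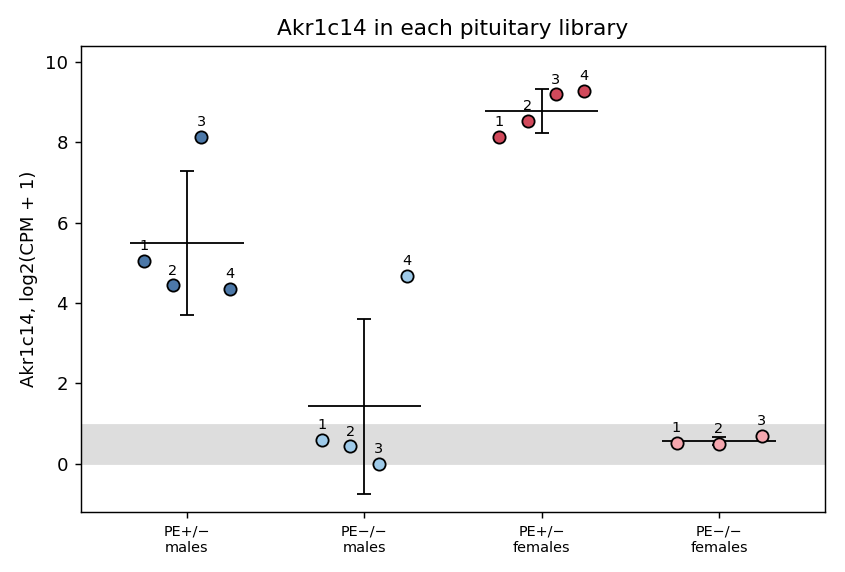
Akr1c14 in the 15 libraries as log2(CPM + 1), with replicate numbers, the mean (line) and the SD (bar) of each group. The grey band ends at the highest floor of detection of any library, 0.937 CPM. All 3 PE−/− females and 3 of 4 PE−/− males lie in the band, and PE−/− male replicate 4 lies among the control males.

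Between the sexes of the controls, Akr1c14 was on average 5.28 times higher in females than in males. The log2 fold change (female minus male) was 2.40. PE+/− male replicate 3, at 279.5 CPM, was 11.6 times the mean of the other 3 control males (24.01 CPM) and just under the lowest control female, at 280.0 CPM. Without that library the log2 fold change was 4.27. The groups did not overlap, and in this comparison neither did those of 9.75% of the 17163 genes tested. In PE−/− mice the log2 fold change (female minus male) was −3.68. It rested on male replicate 4 alone, since the other 6 libraries lay between 0 and 0.613 CPM. The genotype change in females minus that in males was −6.09 on the log2 scale and −1.64 without PE−/− male replicate 4.

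Per kilobase of merged exons, Akr1c14 ranked 306 of 55418 genes in PE+/− females, at 143 CPM per kilobase, and 1834 in PE+/− males, at 27.1. Its rank was 10984 in PE−/− males, at 1.95, and 20472 in PE−/− females, at 0.149 CPM per kilobase. By group mean the order was PE+/− females, PE+/− males, PE−/− males and PE−/− females. The last place rests on PE−/− male replicate 4, without which the PE−/− male mean was 0.283 CPM, under the 0.482 CPM of PE−/− females. The 2 PE−/− groups, and the 2 male groups, were not separate from each other in CPM.

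Cell type markers were also examined in the 2 male libraries that were high for Akr1c14. PE−/− male replicate 4 had the lowest summed gonadotrope level of its group, 22.5 CPM against 104 to 162 CPM, with Lhb, which encodes the beta subunit of luteinizing hormone, at 3.13 CPM against 15.2 to 17.1. Fshb, the beta subunit of follicle-stimulating hormone, was at 9.10 CPM there against 72.0 to 128, and Gnrhr, the receptor for gonadotropin-releasing hormone, at 1.88 CPM against 5.28 to 8.13. The same library had the highest sum of the 3 lactotrope markers (Prl, Agtr1a and Angpt1) of all 15, 41413 CPM against 4896 to 16767 in the rest of its group. In control females that sum lay between 22063 and 35499 CPM, and in PE−/− females between 4605 and 5791 CPM. Nearly all of it was Prl, and Agtr1a did not share the difference in females, at 58.4, 24.8, 20.9 and 36.0 CPM in PE+/− and 50.9, 47.2 and 69.3 CPM in PE−/− libraries. In PE−/− male replicate 4 Agtr1a was at 79.0 CPM against 38.9 to 60.0 CPM in the rest of its group, and Angpt1 at 148 CPM against 89.5 to 121 CPM. The thyrotrope sum (Tshb, Trhr and Dio2) of that library, 170 CPM against 336 to 484 CPM in its group, was the lowest of all 15. PE+/− male replicate 3 had 3986 CPM of gonadotrope markers against 2695 to 3964 CPM in the rest of its group, and its lactotrope sum of 16094 CPM lay inside the range of the others, 12568 to 31359 CPM. The 2 markers other than Prl were highest of the group there, Agtr1a at 161 CPM against 70.8 to 137 CPM and Angpt1 at 220 CPM against 110 to 157 CPM. Its sum of 5 corticotrope and melanotrope markers was the lowest of the group, 15638 CPM against 39213 to 58661 CPM. Libraries that were not high for Akr1c14 also stood apart in marker sums. In PE−/− male replicate 1 the corticotrope and melanotrope sum was 5257 CPM against 42513 to 115796 CPM in its group. Pomc alone set it, at 4639 CPM against 42081 to 114917 CPM. Tbx19, Crhr1, Pax7 and Pcsk2 of that library lay inside the range of the others. In PE+/− male replicate 1 the endothelial sum (Pecam1, Plvap, Emcn and Cdh5) was 327 CPM against 55.7 to 89.4 CPM. Plvap alone set it, at 285 CPM against 12.2 to 40.8 CPM. Pecam1 was the lowest of the group there, at 11.4 CPM against 14.5 to 22.5 CPM, and Emcn and Cdh5 lay inside the range of the others. Tgfbr3l, a gonadotrope gene named after its values were seen, was at 297 CPM in PE+/− male replicate 3 against 30.2 to 62.9 CPM in the others, and at 3.30 CPM in PE−/− male replicate 4 against 2.63 to 3.90 CPM. Nr5a1 was at 0.739 CPM (13 counts) in PE−/− male replicate 4, against 0 to 0.344 CPM in the rest of its group. That was near the floor and far below every control library, as its label implies. The part of these values in the Akr1c14 result was not tested.

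**Figure D2:**
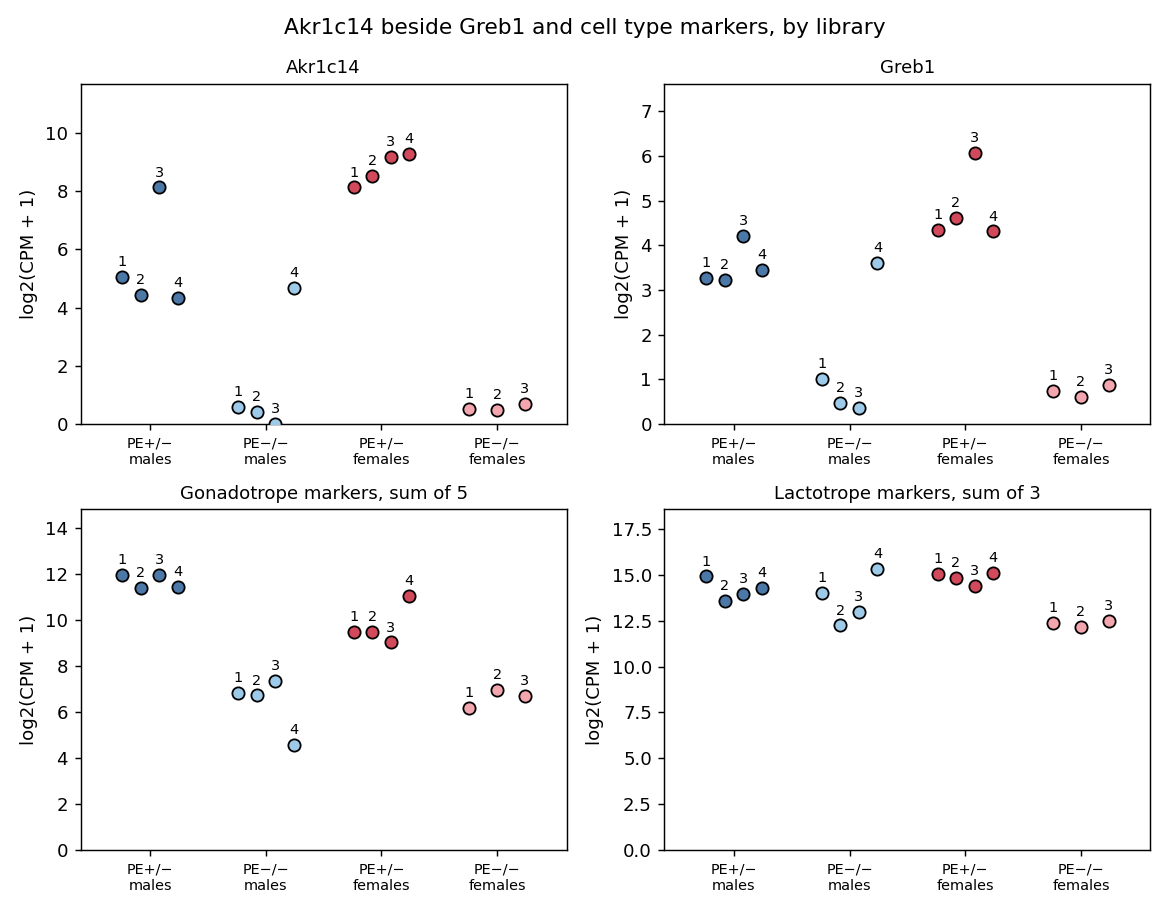
Akr1c14, Greb1 and the summed markers of gonadotropes (5 genes) and lactotropes (3 genes) in each library, as log2(CPM + 1), with replicate numbers and no error bars. PE−/− male replicate 4 is high for Akr1c14, Greb1 and the lactotrope sum (41413 CPM) and lowest for the gonadotrope sum (22.5 CPM).

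The genes most like Akr1c14 across the 15 libraries, by Pearson r of log2(CPM + 1) among 16026 genes, were Greb1 (0.965), Pianp (0.943), Gm15408 (0.932), Gal (0.932) and Sdhc (0.928). The points share library, depth and group, and these values are a description. Greb1 and Pianp were also among the top 5 by Spearman's rho, with a pseudocount of 0.1 and without PE−/− male replicate 4. The other 3 were not among them in any of these. Greb1, a gene known for its induction by oestrogen, was at 19.2, 23.3, 65.8 and 18.8 CPM in PE+/− females and between 0.525 and 0.831 CPM in PE−/− females. In PE+/− males it was at 8.59, 8.34, 17.5 and 9.88 CPM, and in PE−/− males at 1.01, 0.383, 0.281 and 11.2 CPM, so that its high PE−/− male library was the one that was high for Akr1c14. Gal, which encodes the neuropeptide galanin, was at 87.3, 759, 745 and 730 CPM in PE+/− females and between 0.926 and 2.41 CPM in PE−/− females. In PE−/− males it was at 2.22, 1.68 and 3.00 CPM in replicates 1 to 3 and at 12.9 CPM in replicate 4. Pianp had a much smaller range, from 18.1 CPM in a PE−/− male to 85.2 CPM in a control female.

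AKR1C14 belongs to a family whose genes lie side by side and resemble each other, so its reads could be confused with theirs. The closest relative over its annotated transcript was Akr1c18, at 77.1% identity over 981 aligned bases. Of the 3090 distinct windows of 150 bases, the length of 1 read, in the 3 annotated Akr1c14 transcripts, 2.75% also occurred in a transcript of another gene, in every case Gm18857, a gene of the same assembled locus with 0 counts in all libraries. Akr1c6, Akr1c12, Akr1c18, Akr1c19 and Akr1c20 were at 0 in all 15 libraries. Akr1c13 held 17 and 12 counts in 1 library each of the male groups and 0 in the females, and Akr1c21 and Akr1cl held no more than 9 counts in any library. Akr1e1, a more distant member of the superfamily at the far end of the cluster, was at 58.4 ± 6.81 CPM in PE+/− females (SD, n = 4) and 52.9 ± 9.39 CPM in PE−/− females (SD, n = 3).

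Of the enzymes that supply or remove the substrates of AKR1C14, Srd5a1 was low and similar in all groups. It was at 7.11, 3.14, 2.28 and 5.18 CPM in PE+/− females and 4.32, 4.33 and 3.89 CPM in PE−/− females. Replicates of PE+/− males were at 5.84, 3.71, 3.66 and 5.36 CPM and those of PE−/− males at 3.99, 3.60, 4.78 and 4.32 CPM. The groups overlapped in both sexes, with log2 fold changes (PE−/− minus PE+/−) of −0.08 (SE 0.40, adjusted p = 0.953) in females and −0.15 (SE 0.23, adjusted p = 0.985) in males by the edgeR quasi-likelihood test. Srd5a1 shared its assembled locus with Gm17108, which held 786 counts over all libraries, so the split of counts between them is uncertain.

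Hsd17b4, a peroxisomal multifunctional enzyme of fatty acid beta-oxidation that also oxidises oestradiol, had the second highest level of the 10 genes in each PE+/− group. It was at 28.5, 12.8, 17.5 and 20.2 CPM in PE+/− females and 24.7, 23.6 and 23.0 CPM in PE−/− females. In PE+/− males it was at 17.3, 27.5, 19.0 and 23.1 CPM and in PE−/− males at 21.9, 22.9, 24.6 and 24.7 CPM. The control libraries spread more widely than the PE−/− libraries and enclosed them. Its log2 fold change was 0.26 (SE 0.26, adjusted p = 0.714) in females and 0.11 (SE 0.16, adjusted p = 0.984) in males.

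Hsd17b7, which acts on oestrone and also in cholesterol synthesis, was at 8.35, 4.35, 7.83 and 8.78 CPM in PE+/− females and 12.6, 10.5 and 11.9 CPM in PE−/− females. All PE−/− female libraries were above all control ones, and the groups were likewise separate for 18.6% of the 18085 genes tested in females. The log2 fold change was 0.67 (SE 0.26) and did not pass the edgeR quasi-likelihood test over all genes (adjusted p = 0.267, from 0.157 to 0.489 over the alternatives), which 1.05% of the genes tested in females passed. In males it was at 6.34, 10.3, 11.0 and 7.95 CPM in PE+/− and 11.8, 11.0, 8.85 and 9.27 CPM in PE−/− libraries, which overlapped (log2 fold change 0.20, SE 0.21, adjusted p = 0.973).

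Star was detected in every library at a low level, at 2.58, 4.44, 3.26 and 3.17 CPM in PE+/− females and 3.52, 6.12 and 3.98 CPM in PE−/− females. In males it was at 3.31, 3.38, 1.10 and 5.36 CPM in PE+/− and 3.94, 2.79, 3.98 and 2.96 CPM in PE−/− libraries. The groups overlapped in both sexes. Its log2 fold change was 0.43 (SE 0.29, adjusted p = 0.552) in females and 0.05 (SE 0.42, adjusted p = 0.996) in males.

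**Figure D3:**
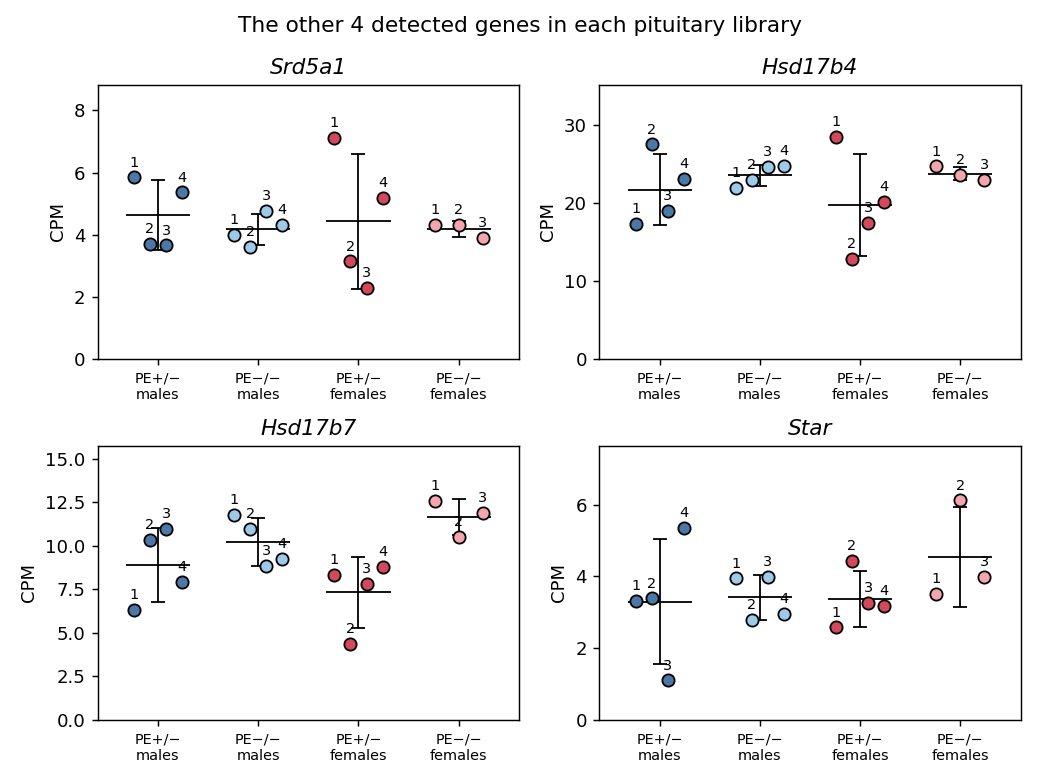
CPM of Srd5a1, Hsd17b4, Hsd17b7 and Star in each library, with replicate numbers, the mean (line) and the SD (bar) of each group. The groups overlap for each gene in males, and in females Hsd17b7 alone has separate groups (4.35 to 8.78 CPM in PE+/− and 10.5 to 12.6 CPM in PE−/−).

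The remaining genes of steroid synthesis were at or near 0. Cyp19a1 and Akr1c18 were at 0 in all 15 libraries. Cyp11a1 held 9 counts in PE−/− male replicate 3 and 0 elsewhere, under the floor, on a locus shared with Gm17322. Hsd17b1, which makes oestradiol from oestrone in the ovary, held 19 counts (0.587 CPM) in PE−/− female replicate 2 and 0 elsewhere. At these depths their absence below the floor of 0.371 to 0.937 CPM cannot be shown. The defining genes of gonadal and adrenal steroid-making cells other than Star were checked for RNA of such cells. Hsd3b1, Insl3, Cyp21a1 and Cyp11b1 were at 0 in all libraries, and Cyp17a1 reached at most 0.979 CPM, and the 7 markers together, Star included, lay between 1.77 and 6.12 CPM.

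None of the 4 tested genes other than Akr1c14 passed the threshold in any of the 5 comparisons, in the fit reported or in any alternative, including DESeq2. Hsd17b7 in females was the only one of their 20 tests with an unadjusted p under 0.05. Between the sexes, the log2 fold changes (female minus male) of these 4 genes lay between −0.28 and 0.04 in PE+/− and between 0.01 and 0.42 in PE−/− mice, with adjusted p from 0.737 to 0.986 and from 0.997 to 0.998. In the interaction of genotype and sex their adjusted p lay between 0.71 and 0.987. Per kilobase, in PE+/− females Akr1c14 (143 CPM per kilobase) was followed by Hsd17b4 (5.80), Srd5a1 (1.52), Hsd17b7 (1.44) and Star (0.817), whereas in PE−/− females Hsd17b4 (6.99) stood first and Akr1c14 (0.149) after Hsd17b7 (2.29), Srd5a1 (1.44) and Star (1.10). Srd5a1 and Hsd17b7 in PE+/− females differed by less than their spread.

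A wider set of 78 genes of the same pathways, none of them among the 10, was used to see whether other steroid genes changed. Of these, 49 were tested in males and 50 in females, and 1 gene passed the threshold in each, which was the same gene, Sult5a1. The set was drawn up when Sult5a1 was already known from these data as a gene lowered in PE−/− mice. Its pass is therefore a description and no independent support for a change of the set. Sult5a1 encodes a cytosolic sulfotransferase, one of the enzymes that attach sulfate to small molecules. In PE+/− males it was at 6.76, 8.16, 8.10 and 6.78 CPM and in PE−/− males at 0.202, 0.765, 0.702 and 1.08 CPM. In PE+/− females it was at 7.03, 3.01, 2.12 and 3.17 CPM and in PE−/− females at 0.494, 0.402 and 0.394 CPM. Every PE−/− library was below every control library of its sex, with 4 to 20 counts in PE−/− males and 8 to 13 in PE−/− females, close to the floor. By the edgeR quasi-likelihood test the log2 fold change was −3.43 in males (SE 0.41, adjusted p = 0.0203) and −3.15 in females (SE 0.51, adjusted p = 0.0438). The calls were lost in males without any 1 of 6 of the 8 libraries and in females without any 1 of 6 of the 7, with adjusted p from 0.0602 to 0.107 and from 0.0530 to 0.194. The share of the set that passed, 1 of 49 and 1 of 50 genes, stood beside 0.132% and 1.05% of all genes tested.

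Both directions were about equally common in the set. In males 25 of the 49 genes tested had a positive and 24 a negative log2 fold change, with a median of 0.05 against 0.00 over all genes tested, and in females 28 were positive and 22 negative, with a median of 0.14 against 0.00. At an unadjusted p under 0.05 there were 7 genes in males and 11 in females, beside 1067 of all 17392 and 2920 of all 18085 genes tested. DESeq2 called 2 in males and 6 in females, against 206 and 1431 of all genes tested. Hsd11b1, the enzyme that regenerates active glucocorticoid, was the second gene that DESeq2 called in males, at 39.1, 49.6, 61.7 and 47.1 CPM in PE+/− and 79.2, 91.5, 84.2 and 92.6 CPM in PE−/− libraries (log2 fold change 0.81, SE 0.15, adjusted p = 0.156 in edgeR). Those it called in females included Sult5a1, Hsd17b12, Nr3c1, Nr3c2 and Pgr. Hsd11b1, Nr3c1, Nr3c2 and Pgr were named after their values were seen.

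Among the aldo-keto reductases, 6 of 15 genes were tested and none passed. Akr1a1, the broad-range aldehyde reductase with the highest level per kilobase of that list, was at 273 ± 42.6 CPM in PE+/− females and 255 ± 14.8 CPM in PE−/− females (SD, n = 4 and 3; adjusted p = 0.815 in edgeR). Among the reductases and hydroxysteroid dehydrogenases, 10 of 22 genes were tested in females and 9 in males. Hsd17b12, which elongates fatty acids and reduces oestrone, was their most abundant gene per kilobase. It was at 136, 110, 110 and 116 CPM in PE+/− females and 174, 206 and 190 CPM in PE−/− females, with separate groups. Its log2 fold change in females was 0.68 (SE 0.14, adjusted p = 0.0719) and did not pass, but passed in DESeq2 (adjusted p = 0.000435), in the fit of all 15 libraries (0.00935) and without PE+/− female replicate 1 (0.0489). In males it was at 127, 157, 143 and 139 CPM in PE+/− and 183, 199, 196 and 160 CPM in PE−/− libraries, also separate (log2 fold change 0.39, SE 0.12, adjusted p = 0.524).

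Of the steroid P450 enzymes and their electron donors, 8 of 12 were tested in each sex and none passed. Cyb5a, the cytochrome b5 that assists CYP17A1, led them per kilobase and was at 169 ± 58.3 CPM in PE+/− and 188 ± 21.8 CPM in PE−/− females (SD, n = 4 and 3; adjusted p = 0.885 in edgeR). All 12 genes of cholesterol uptake, release and transport were tested and none passed. Npc2, which moves cholesterol out of lysosomes, was at 429 ± 63.7 CPM in PE+/− and 559 ± 43.1 CPM in PE−/− females (SD, n = 4 and 3; adjusted p = 0.296 in edgeR). In the conjugation list, besides Sult5a1, 7 genes were tested in each sex and none passed, and Papss1, which makes the sulfate donor, was at 81.0 ± 12.8 CPM in PE+/− and 80.6 ± 11.2 CPM in PE−/− females (SD, n = 4 and 3).

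Of the 7 steroid receptors 6 were tested in each sex and none passed. Pgr, the progesterone receptor, which oestrogen is known to induce, was at 20.7, 25.0, 61.6 and 29.6 CPM in PE+/− females and 8.33, 10.8 and 11.8 CPM in PE−/− females, with a log2 fold change of −1.73 (SE 0.40, adjusted p = 0.096). It lay between 5.24 and 13.2 CPM in all 8 male libraries. The glucocorticoid receptor gene Nr3c1 and the mineralocorticoid receptor gene Nr3c2 had log2 fold changes in females of 0.86 (SE 0.21, adjusted p = 0.0999) and 0.79 (SE 0.18, adjusted p = 0.0894). Gper1, the membrane oestrogen receptor, led the list per kilobase, and 1 PE−/− female library was at 4.77 CPM while the other 2 were at 147 and 162 CPM.

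Between the sexes, 50 genes of the set were tested in PE+/− and 52 in PE−/− mice, and 0 passed in either in edgeR, beside 0.670% and 0.0494% of all genes tested. At an unadjusted p under 0.05 there were 14 and 2, beside 2311 of all 17163 and 614 of all 18217 genes tested. DESeq2 called 4 and 0, beside 900 and 41 of all genes. The 4 included Pgr (log2 fold change, female minus male, 1.79, SE 0.41, adjusted p = 0.112 in edgeR), Nr3c2 (−0.70, SE 0.15, adjusted p = 0.0875) and Cyp27a1 (−1.08, SE 0.29, adjusted p = 0.152). In the interaction of genotype and sex 0 of 54 genes passed, beside 0.161% of all 19286 genes tested, with 11 at an unadjusted p under 0.05 beside 1950 of all genes tested. DESeq2 called 2, beside 392 of all genes, and these were Pgr (−1.91, SE 0.50, adjusted p = 0.172 in edgeR) and Akr1b10 (1.09, SE 0.28, adjusted p = 0.173). Cyp27a1 and Akr1b10 were likewise named after their values were seen.

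**Figure D4:**
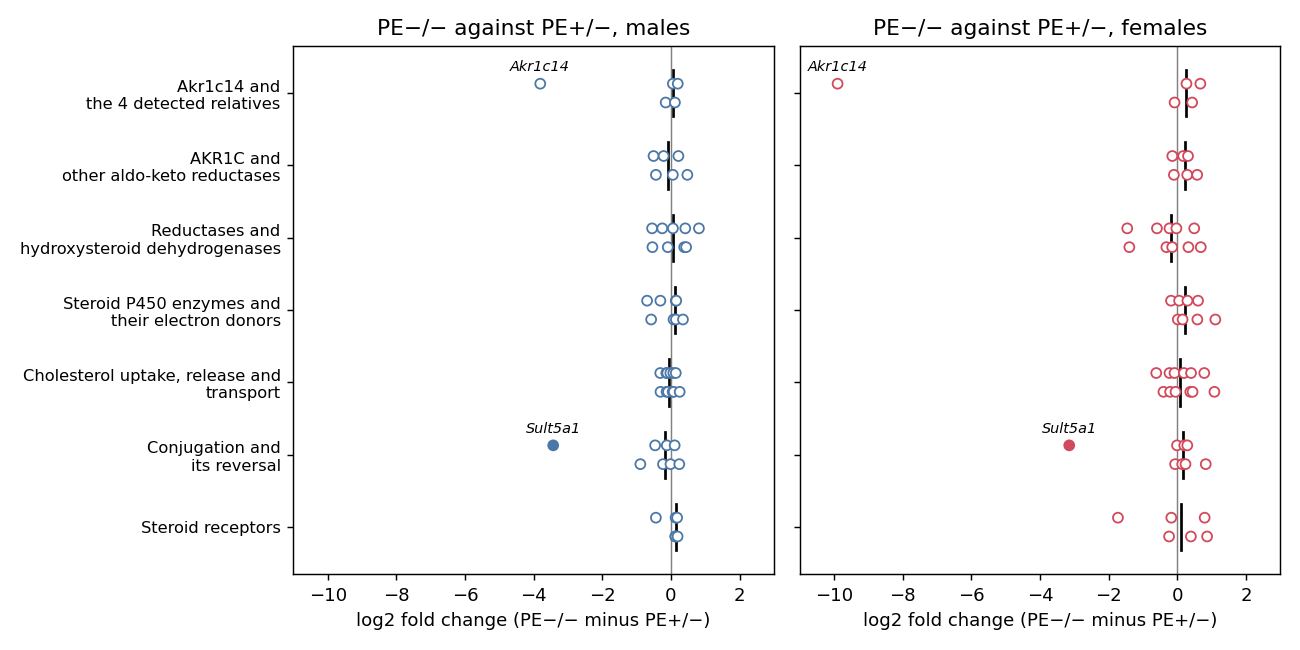
Log2 fold change (PE−/− minus PE+/−) of each gene tested in males and in females, by list, with the median of the list as a black line. Filled points passed the threshold, and Akr1c14 was given no test in females. Akr1c14 (−3.81 and −9.90) and Sult5a1 (−3.43 and −3.15) lie far below the rest.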

How the data were processed

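RNA of whole pituitaries was made into libraries with a low-input kit and sequenced as paired reads of 150 bases. Per the study's methods and the submitters' processing notes, the authors trimmed reads with cutadapt, mapped them to mm10 (GRCm38) with STAR and counted with featureCounts. The deposited table gives estimated counts, rounded and unnormalized. Row names point to an assembled annotation, and about 4 counts stood for 1 fragment (in loci with 1 row, values of 5 occurred 1.53 times as often as 4 and 6), so overlapping and near-identical genes are uncertain. Each of the 15 columns was matched to its sample by name, and 0 were left over.

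Fits used edgeR 4.0.16 (R 4.3.3): filterByExpr (minimum count 10, total 15), TMM factors, two-sided quasi-likelihood F tests with the compared groups only, Benjamini-Hochberg adjustment over all genes tested, threshold 0.05. The common biological coefficient of variation ranged from 41.3% to 46.9%. The standard error is the log2 fold change over the square root of F. DESeq2 1.42.0 and the other settings of the closing section were alternatives. Counts divided by 4 and the removal of both outlying male libraries were added after seeing the data. Floors cover counting error only. Gene positions are from GENCODE M21 and promoters from RefSeq. Scripts were tested on simulated data.

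The members, the 6 pathway lists and the marker lists were chosen with earlier results of these data known. All members were named, with every list gene past the threshold, the list gene with most counts per kilobase, and the 5 genes most like Akr1c14 (mean of at least 20 counts, not overlapping it). Some list genes are counted but not reported here by name.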

Additional observations from a re-analysis of the deposited data

Results flagged for a closer look

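Within groups of 4 libraries, 16 genes named in the text were examined in 3 groups, 48 sets of values, for a highest or lowest library far from the rest (Dixon's test at 95%). Chance alone picks out about 1 in 20 sets. Akr1c14 stood out in 2 libraries, at 279.5 CPM in PE+/− male replicate 3 and at 24.4 CPM in PE−/− male replicate 4. Greb1 stood out in the same 2 libraries, at 17.5 and 11.2 CPM, and at 65.8 CPM in PE+/− female replicate 3. Gal was at 12.9 CPM in PE−/− male replicate 4, the highest of its group, and at 87.3 CPM in PE+/− female replicate 1, the lowest of its group. Greb1 and Gal were named for their likeness to Akr1c14 over these same libraries. Outlying libraries that they share with it follow from that choice and are no separate support. Outlying libraries were also counted over 16045 genes with a mean of at least 20 counts. That count used log2(CPM + 1), whereas the 48 sets used CPM, so its shares are no direct background for them. PE−/− male replicate 4 was the outlying library of its group in 1.98% of these genes and PE+/− male replicate 3 in 1.77%. The 12 libraries of the groups of 4 ranged from 1.51% to 2.92%.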

How the results depend on the processing

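The count of genes of the wider set of 78 that passed was 1 in males, 1 in females and 0 in the other comparisons. With DESeq2 it was 2 in males, 6 in females, 4 between the sexes of PE+/− and 2 in the interaction, and with all 15 libraries in 1 fit it was 7 in females and 2 between the sexes of PE+/−. With no low-count filter it was 0 in females. Leaving out 1 library at a time, it ran from 0 to 1 in males, from 0 to 2 in females and from 0 to 1 between the sexes of PE+/−, and without both outlying male libraries it was 0 in males. The remaining settings (DESeq2 size factors, library totals, a filter of 1 CPM, rows of a symbol summed, counts divided by 4) left each count unchanged. The log2 fold change of Akr1c14 without 1 library at a time ran from −8.25 to −1.94 in males, from −10.1 to −9.73 in females, from 2.06 to 4.27 between the sexes of PE+/− and from −7.96 to −1.64 in the interaction. Between the sexes of PE−/− it could not be fitted without PE−/− male replicate 4. Without 1 library, Srd5a1 in females ran from −0.31 to 0.24 and Star in males from −0.23 to 0.39, and Star was at −0.17 without both outlying male libraries. With the replicate number as a block, the count was 0 in males and in females, Akr1c14 was at −5.79 in males, 0.93 between the sexes of PE−/− and −4.06 in the interaction, and Srd5a1 in females was at 0.16. The numbers share no stated source, and deviations of same-numbered libraries correlated at −0.136 to 0.154, so the block was not used for the report. The cause of these shifts was not tested. Counts near 12 limit the folds of Akr1c14 and Sult5a1.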

Other observations

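Hsd17b12 ran opposite to Akr1c14 across the 15 libraries, with a Pearson r of −0.926 on log2(CPM + 1), which placed it 16021 of 16026 genes ranked from most to least alike. It was picked out after its values were seen, and the points share library, depth and group. Sdhc, a subunit of succinate dehydrogenase and the fifth most like Akr1c14, ranged only from 106 to 138 CPM. Akr1e1, at the far end of the gene cluster on chromosome 13, was at 3.66 CPM in PE+/− male replicate 2.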
